A study of Mus musculus with 8 samples.

Results

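The 8 genes described here encode transcription factors that set up and maintain the identity of excitatory (glutamatergic) neurons of the cerebral cortex: Neurod1, Neurod2, Neurod6, Emx1, Tbr1, Fezf2, Bcl11b and Mef2c. They were taken as a named list from the 23523 gene features of the RNA-seq table, and all 8 were measured. The data were 5 mouse glioblastomas, labelled glioblastomas 1 to 5 here, and 3 samples of normal mouse brain, labelled brains 1 to 3. The tumours arose after delivery of a lentiviral vector that carried an activated oncogene, HrasG12V, together with a short hairpin RNA against p53. They were taken at the clinical endpoint, and the GFP+ tumour was dissected free of surrounding brain. The labels name the other samples only as normal mouse brain, with no vector or treatment of their own. The sources used here do not give the strain, the age of the animals, the cell type in which the vector acted or the region of the normal brain. The labels do not tie the samples to separate animals, and the p-values therefore measure only how these samples spread.

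Excitatory neurons of the cortex arise from progenitors of the dorsal telencephalon, where homeodomain factors such as Emx1 mark the territory. Neuronal basic helix-loop-helix factors of the NeuroD family then come on as the cells leave the cycle, and zinc finger and T-box factors such as Fezf2, Bcl11b and Tbr1 divide the neurons of the deep layers by the targets of their axons. Several of the genes stay on in the adult cortex and hippocampus, where Mef2c also takes part in the control of synapse number by activity.

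Fragments assigned to transcripts numbered from 5490351 to 15564280 per library. Levels are given as CPM, fragment counts scaled to library size with TMM factors, on which 3 fragments in a single library corresponded to between 0.174 and 0.541 CPM in the glioblastomas and between 0.408 and 0.507 CPM in the brains. Trp53, the gene targeted by the hairpin, lay between 2.73 and 5.92 CPM in glioblastomas and between 4.73 and 7.21 CPM in brains, and was not called (log2 fold change -0.46 ± 0.35, SE; edgeR adjusted p = 0.262). Hras averaged 413 ± 75.0 CPM in glioblastomas (SD, n = 5) and 99.4 ± 4.61 CPM in brains (SD, n = 3), and its reads from the vector and from the mouse gene cannot be told apart. Genes known from cortical, striatal and hippocampal neurons were measured in the normal samples. There a list of 26 cortical factors summed to between 2407 and 2801 CPM and 9 striatal genes to between 244 and 384 CPM. The 4 genes of hippocampal granule neurons summed to between 36.9 and 102 CPM. The lists differ in length and genes, so their sums do not measure the share of each region. The 8 cerebellar genes summed to between 14.5 and 33.5 CPM in glioblastomas and between 18.3 and 29.1 CPM in brains, where Cbln1, Zic1 and Zic2 had 222, 149 and 80 fragments over the 3 samples and Gabra6 and Pcp2 had 2 and 0.

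The 3 NeuroD genes are close relatives, so the sequences below show how far their reads and their control regions can be told apart. The first set gives 90 bases of coding sequence from the part that encodes the helix-loop-helix domain (GRCm38, GENCODE M21, all on the minus strand, 5′ to 3′). Capitals mark the positions at which the 3 genes do not all have the same base. The windows lie at chr2:79454588-79454677 for Neurod1, chr11:98327824-98327913 for Neurod2 and chr6:55679222-55679311 for Neurod6.
Neurod1: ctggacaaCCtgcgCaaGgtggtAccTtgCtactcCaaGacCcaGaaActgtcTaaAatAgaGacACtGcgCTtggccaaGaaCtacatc
Neurod2: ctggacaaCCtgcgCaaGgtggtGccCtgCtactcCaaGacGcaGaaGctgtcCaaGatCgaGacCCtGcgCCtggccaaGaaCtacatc
Neurod6: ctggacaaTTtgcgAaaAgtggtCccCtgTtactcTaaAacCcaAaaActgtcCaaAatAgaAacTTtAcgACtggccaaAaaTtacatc
Across the window 67 of 90 positions, or 74.4%, held the same base in all 3 genes. Over the whole transcripts the longest identical run was 25 bases between Neurod1 and Neurod2, 17 bases between Neurod1 and Neurod6 and 11 bases between Neurod2 and Neurod6. Each of the 3 genes had whole-number fragment counts in every library within 0.01, so no fractional split of fragments with another gene was seen in them.

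The second set gives the 250 bases before the transcription start site of the same 3 genes (RefSeq, GRCm38.p6, minus strand, 5′ to 3′), because these genes were low together in the tumours and NeuroD factors bind DNA at E-boxes. Capitals mark each E-box, spelled CANNTG, a motif that reads as an E-box on both strands. The regions are chr2:79456637-79456886 for Neurod1, chr11:98329646-98329895 for Neurod2 and chr6:55681264-55681513 for Neurod6.
Neurod1: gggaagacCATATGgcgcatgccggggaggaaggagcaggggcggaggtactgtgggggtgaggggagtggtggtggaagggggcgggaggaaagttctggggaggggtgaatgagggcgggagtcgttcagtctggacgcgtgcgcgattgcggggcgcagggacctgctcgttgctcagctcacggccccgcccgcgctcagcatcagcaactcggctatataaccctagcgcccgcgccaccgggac
Neurod2: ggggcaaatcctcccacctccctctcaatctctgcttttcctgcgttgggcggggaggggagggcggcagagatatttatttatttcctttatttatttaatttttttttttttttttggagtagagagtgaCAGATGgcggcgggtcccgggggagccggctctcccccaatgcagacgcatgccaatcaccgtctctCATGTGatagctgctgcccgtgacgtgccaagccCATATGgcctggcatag
Neurod6: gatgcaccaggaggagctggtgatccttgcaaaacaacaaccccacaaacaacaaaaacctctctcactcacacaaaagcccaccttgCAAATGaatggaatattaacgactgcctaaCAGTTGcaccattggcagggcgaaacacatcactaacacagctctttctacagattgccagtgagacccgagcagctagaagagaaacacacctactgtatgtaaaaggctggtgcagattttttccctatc
Neurod1 held 1 E-box, which began at -242 from the start site. Neurod2 held 3, at -118, -51 and -17, and Neurod6 held 2, at -162 and -132. E-boxes are common: 7 of the 10 promoters listed for the 8 genes held at least 1, and so did 72.3% of 32851 RefSeq promoters of 300 bases (250 before to 50 after the start site). The narrower form CAGATG, or CATCTG on the other strand, which is contained in CANNTG, was in 2 of the 10 promoters and in 17.2% of all. The T-box motif AGGTGTGA, or TCACACCT on the other strand, was in 0 of the 10 and in 1.28% of all.

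All 8 genes were lower in glioblastoma than in normal brain, with log2 fold changes between -8.21 and -4.86 and a median of -5.65. In every case the highest tumour lay below the lowest brain. The edgeR quasi-likelihood test with Benjamini-Hochberg adjustment over 14641 genes called all 8, the largest adjusted p being 6.30e-05 (5 glioblastomas against 3 brains). A fall was a common outcome in this comparison. Of all tested genes 33.9% were called lower and 37.1% higher, so that 71.0% were called in one direction or the other. All tumours lay below all brains for 34.5% of tested genes and above them for 36.1%, and the median log2 fold change was 0.06. Neurod1, Neurod6, Tbr1, Fezf2 and Emx1 exceeded the 1.324 CPM of the filter on low counts in the brains only, so that a difference was built into their passing it. In bulk tissue, fewer cells of a type and less RNA per cell cannot be told apart, and every level below is that of the whole sample.

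**Figure D1:**
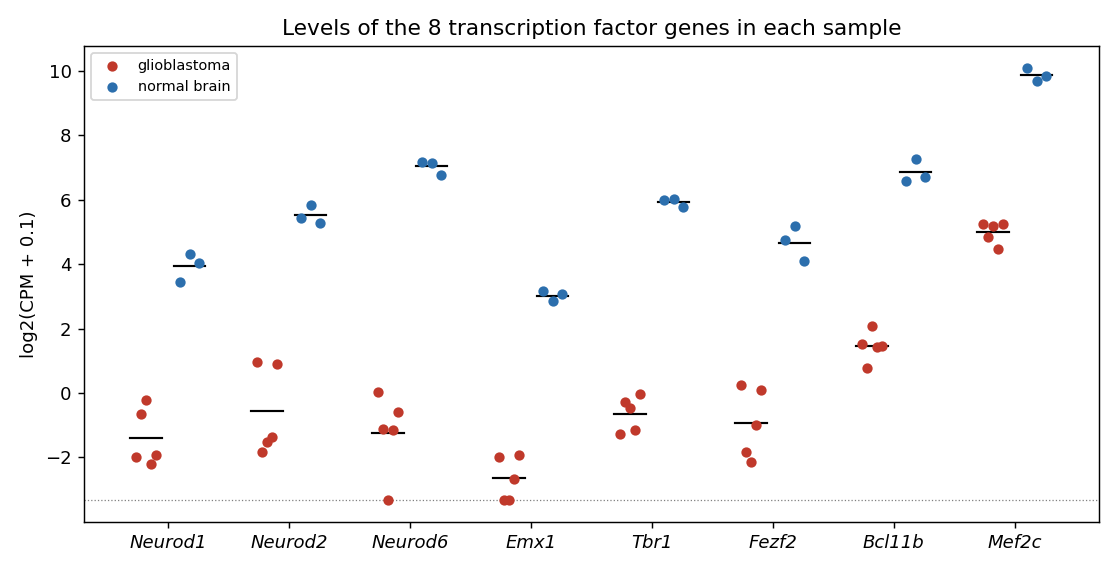
Level of each of the 8 genes, as log2(CPM + 0.1), in 5 glioblastomas (red, left of each pair) and 3 normal brains (blue, right); a point is 1 sample, black bars are group means, and the dotted line marks 0 CPM. For all 8 genes the red points lie below the blue ones, with the widest gap for Neurod6.

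Neurod6 is a helix-loop-helix factor of pyramidal neurons of the cortex and hippocampus. It was measured at 0.930, 0.360, 0, 0.349 and 0.565 CPM in glioblastomas 1 to 5, against 145, 142 and 108 CPM in brains 1 to 3. No tumour reached 1 CPM, all brains were above 100 CPM, and glioblastoma 3 had 0 fragments, for which the exact 95% Poisson interval reached 0.464 CPM. Between the groups the level was 296-fold lower in glioblastoma, a log2 fold change of -8.21 ± 0.46 (SE; 95% interval from -9.26 to -7.17; edgeR adjusted p = 1.80e-06). Of the 14641 tested genes, 3 had a lower log2 fold change.

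Neurod2 is a helix-loop-helix factor of postmitotic excitatory neurons that takes part in the maturation of their synapses. Its level was 1.86, 0.180, 0.252, 0.291 and 1.78 CPM in glioblastomas 1 to 5, against 42.6, 56.9 and 38.9 CPM in brains 1 to 3. Glioblastomas 1 and 5 stood above the other tumours, and brain 2 was the highest of the brains. Neurod2 was lower by a log2 fold change of -5.70 ± 0.63 (SE; 95% interval from -7.14 to -4.26; edgeR adjusted p = 6.30e-05), with 42 fragments in all glioblastomas and 933 in all brains.

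Neurod1 acts early in the differentiation of neurons and is also known from granule neurons of the dentate gyrus and cerebellum. It lay at 0.155, 0.541, 0.755, 0.116 and 0.161 CPM in glioblastomas 1 to 5, against 10.8, 19.7 and 16.2 CPM in brains 1 to 3. Glioblastomas 2 and 3 were the highest tumours, unlike for Neurod2 and Neurod6, and brain 2 was again the highest brain. For Neurod1 the log2 fold change came to -5.60 ± 0.53 (SE; 95% interval from -6.81 to -4.39; edgeR adjusted p = 2.52e-05). It rested on 14 fragments in the glioblastomas and 320 in the brains.

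Emx1 is a homeodomain factor of the dorsal telencephalon that persists in cortical excitatory neurons. It was at 0.155, 0, 0, 0.0582 and 0.161 CPM in glioblastomas 1 to 5, against 8.79, 7.06 and 8.31 CPM in brains 1 to 3. The tumour values stood for 4 fragments in all, and glioblastomas 2 and 3, with 0 fragments, had exact 95% Poisson intervals that reached 0.665 and 0.464 CPM. Emx1 thus had a log2 fold change of -6.41 ± 0.51 (SE; 95% interval from -7.58 to -5.24; edgeR adjusted p = 9.87e-06). The brains lay close together, with an SD of 0.890 CPM around a mean of 8.05 CPM.

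Tbr1 is a T-box factor of deep-layer neurons that project to the thalamus. Its level was 0.310, 0.721, 0.629, 0.349 and 0.888 CPM in glioblastomas 1 to 5, against 63.4, 64.4 and 54.5 CPM in brains 1 to 3. The tumours stayed below 1 CPM and the brains were within 10 CPM of each other. Tbr1 was 103-fold lower, a log2 fold change of -6.69 ± 0.29 (SE; 95% interval from -7.35 to -6.02; edgeR adjusted p = 5.65e-07). It was the second lowest fold change of the 8, and its interval overlapped those of Neurod6, Emx1, Neurod2, Neurod1, Fezf2 and Bcl11b.

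Fezf2 is a zinc finger factor that directs deep-layer neurons to project below the cortex. It was at 1.08, 0.180, 0.126, 0.407 and 0.968 CPM in glioblastomas 1 to 5, against 26.5, 35.9 and 17 CPM in brains 1 to 3. Glioblastomas 1 and 5 were the highest tumours, as for Neurod2, and the brains spread more widely for Fezf2 than for Tbr1 or Emx1, brain 2 being the highest and brain 3 the lowest. The log2 fold change was -5.52 ± 0.53 (SE; 95% interval from -6.72 to -4.31; edgeR adjusted p = 2.78e-05).

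Bcl11b, also called Ctip2, is a zinc finger factor that acts downstream of Fezf2 in cortical neurons and is also known from striatal projection neurons, granule neurons of the dentate gyrus and T cells. It was measured at 2.79, 1.62, 4.15, 2.56 and 2.66 CPM in glioblastomas 1 to 5, against 95.5, 153 and 105 CPM in brains 1 to 3. Every tumour was above its floor of 3 fragments, with 137 fragments in all against 2400 in the brains. The log2 fold change was -5.40 ± 0.28 (SE; 95% interval from -6.04 to -4.77; edgeR adjusted p = 1.15e-06). The submitters' estimates divided its fragments between 2 accessions in a way that shifted from library to library, so the sum is the value used for Bcl11b. The first accession held 99.9%, 100%, 0.04%, 26% and 96.3% of the Bcl11b fragments in glioblastomas 1 to 5, against 62.8%, 45.4% and 32.8% in brains 1 to 3. Tested each by itself, with values that rest on this shifting split, both accessions were lower, at -5.11 ± 0.93 (edgeR adjusted p = 0.00237) and -5.58 ± 1.33 (SE; edgeR adjusted p = 0.00858) on the log2 scale.

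Mef2c is a MADS-box factor of cortical neurons that is also known from muscle, endothelium and microglia. Its level was 37.6, 28.8, 36.5, 22.2 and 37.6 CPM in glioblastomas 1 to 5, against 1095, 819 and 918 CPM in brains 1 to 3. It kept the highest level of the 8 genes in every tumour per length as well, at 3.31 to 5.71 FPKM against at most 0.597 FPKM for any other member. The log2 fold change was -4.86 ± 0.22 (SE; 95% interval from -5.35 to -4.37; edgeR adjusted p = 5.75e-07), or a 29.0-fold lower level. Its main accession held 91.7% of its fragments in glioblastomas and 86.9% in brains, and both accessions were lower, at -4.72 ± 0.22 (edgeR adjusted p = 5.93e-06) and -5.55 ± 0.75 (SE; edgeR adjusted p = 0.000565) on the log2 scale.

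Compared per length, in the FPKM values that the authors deposited, Mef2c was the highest of the 8 genes in normal brain at 125 to 166 FPKM, followed by Neurod6 at 52.4 to 70.2 FPKM. The brain ranges of these 2 genes overlapped neither each other nor any other member. Tbr1 at 13.7 to 16.2 FPKM, Neurod2 at 12.6 to 18.4 FPKM, Bcl11b at 11.8 to 19.1 FPKM and Fezf2 at 7.70 to 16.2 FPKM overlapped one another. Emx1 at 6.90 to 8.53 FPKM and Neurod1 at 4.45 to 8.18 FPKM were the lowest and overlapped each other, and both also overlapped Fezf2. In the glioblastomas the order below Mef2c was mostly not resolved: the other 7 genes ranged between 0 and 0.597 FPKM, and the only pair of ranges that did not overlap was Emx1 at 0 to 0.154 FPKM and Bcl11b at 0.203 to 0.522 FPKM. For Neurod6 the tumours held 0 to 0.449 FPKM, so that the second most abundant of these factors in brain lay among the rest in the tumours.

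Among the tumours, the remaining levels did not follow one order. Neurod2 and Fezf2 were highest in glioblastomas 1 and 5, as was Neurod6 at 0.930 and 0.565 CPM, whereas Neurod1 was highest in glioblastomas 2 and 3 and Bcl11b in glioblastoma 3. Counting error limits this comparison. For Neurod2 the exact 95% Poisson interval of glioblastoma 5 ran from 1.11 to 2.69 CPM and lay above the upper bounds of glioblastomas 2, 3 and 4, at 1.0, 0.909 and 0.679 CPM, while that of glioblastoma 1, from 0.961 to 3.25 CPM, overlapped the interval of glioblastoma 2. For Fezf2, Neurod6, Neurod1, Tbr1, Bcl11b and Emx1 the intervals of the highest and lowest tumour overlapped. Mef2c had enough fragments to separate glioblastoma 4, at 20 to 24.6 CPM, from glioblastomas 1, 3 and 5, whose lowest lower bound was 32.4 CPM. These intervals and the floors of 3 fragments cover counting error only. On the mean of the 8 genes, each centred on its own mean of log2 CPM, glioblastomas 1 to 5 stood at -1.74, -2.37, -2.31, -2.41 and -1.70 and brains 1 to 3 at 3.48, 3.69 and 3.36.

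**Figure D2:**
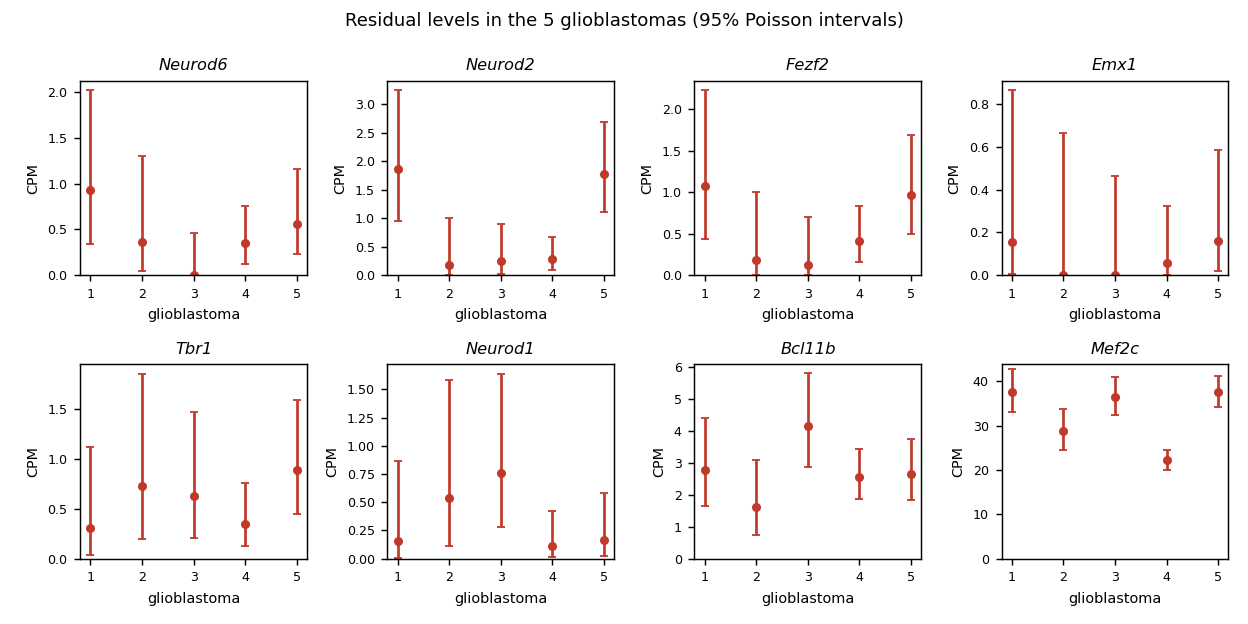
Level in CPM (vertical axis, starting at 0, a separate scale for each gene) of the 8 genes in glioblastomas 1 to 5 (horizontal axis), with exact 95% Poisson intervals that cover counting error only. Neurod2 and Fezf2 are highest in glioblastomas 1 and 5 and Neurod1 in 2 and 3, with overlapping intervals for most pairs of tumours, while Mef2c is lowest in glioblastoma 4.

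Among the normal brains, brain 2 was the highest for Neurod1, Neurod2, Fezf2 and Bcl11b and, by a small margin over brain 1, for Tbr1. It also had the highest summed level of 4 marker genes of granule neurons of the hippocampus (Prox1, C1ql2, Dsp and Tdo2), at 102 CPM against 41.7 CPM in brain 1 and 36.9 CPM in brain 3. C1ql2, which encodes a synaptic protein of these neurons, was at 29.0 CPM in brain 2, against 7.27 CPM in brain 1 and 9.53 CPM in brain 3. Brain 1, the highest for Mef2c, Neurod6 and Emx1, had the highest sum of 9 striatal genes, at 384 CPM against 256 CPM in brain 2 and 244 CPM in brain 3. Bcl11b, also known from striatal neurons, was however lowest in brain 1, at 95.5 CPM. The 6 oligodendrocyte genes also summed highest there, at 5545 CPM against 2838 CPM in brain 2 and 2835 CPM in brain 3. So did the 7 thalamic and midbrain genes, at 81.9 CPM against 22.2 CPM in brain 2 and 41.9 CPM in brain 3. The part of the dissected region in these differences was not tested. Without brain 2, all 8 genes were still called lower in the glioblastomas.

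The nearest relatives of the 8 factors did not all share their fall. Of 9 such genes 6 passed the filter, and 3 of these were lower, 1 was higher and 2 were not called, with a median log2 fold change of -0.82 over the 6. Bcl11a, the close homologue of Bcl11b, was lower at -5.49 ± 0.30 on the log2 scale (SE; edgeR adjusted p = 1.50e-06), at 1.16 ± 0.511 CPM in glioblastomas (SD, n = 5) and 53.9 ± 5.14 CPM in brains (SD, n = 3). Mef2d and Mef2a, which like Mef2c bind A/T-rich sites, had smaller changes, at -1.81 ± 0.27 (edgeR adjusted p = 0.000348) and -1.24 ± 0.22 (SE; edgeR adjusted p = 0.000855). Emx2, the homologue of Emx1 that is also expressed in dorsal progenitors, was at 7.11 ± 4.22 CPM in glioblastomas (SD, n = 5) and 3.80 ± 1.47 CPM in brains (SD, n = 3), and its log2 fold change of 0.90 ± 0.52 was not called (SE; edgeR adjusted p = 0.151). Bhlhe22, another neuronal helix-loop-helix factor, differed by -0.40 ± 0.52 (SE; edgeR adjusted p = 0.511). Eomes, the T-box relative of Tbr1 that marks intermediate progenitors, had 141 fragments in the glioblastomas and 1 in the brains, a ratio of levels of 57.5 with an exact 95% counting interval from 10.3 to 2271, and was called higher (edgeR adjusted p = 0.00885). Fezf1, the relative of Fezf2, did not pass the filter and had 51 fragments in the glioblastomas, at 0.175 to 2.77 CPM, and 0 in the brains. Neurod4 and Mef2b, of the NeuroD and Mef2 families, did not pass it either. Neurod4 had 4 fragments in the glioblastomas and 15 in the brains. Mef2b had 20 in the glioblastomas and 1 in the brains, and for both genes the groups overlapped in CPM.

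Ratios within a sample tested whether a member and its relative differed between the groups. The log2 ratio of Mef2c to Mef2a was -0.55 ± 0.43 in glioblastomas (SD, n = 5) and 3.03 ± 0.20 in brains (SD, n = 3), a difference of -3.58. Mef2c against Mef2d gave 1.58 ± 0.24 in glioblastomas and 4.6 ± 0.35 in brains, a difference of -3.02. Emx1 against Emx2 gave -4.45 ± 0.61 in glioblastomas and 1.09 ± 0.64 in brains, a difference of -5.54. In each of these 3 the groups did not overlap, and the two-sided exact permutation test over samples gave p = 0.0357, the smallest that 5 against 3 samples allow (0.0476 after Benjamini-Hochberg adjustment over the 4 ratios tested). Bcl11b against Bcl11a gave 1.12 ± 0.64 in glioblastomas and 1.10 ± 0.26 in brains, with overlapping groups and a difference of 0.02 (exact permutation p = 0.964). In these samples the ratios of Mef2c to Mef2a and to Mef2d were lower in every glioblastoma than in any brain. The adjusted permutation p of 0.0476 counts the ratio of Emx1 to Emx2 among its 4, so it is no firm call for Mef2c. For the pair Bcl11b and Bcl11a no such difference was detected. The ratio of Emx1 to Emx2 cannot decide whether the fall of Emx1 differed from the change of Emx2. Emx1 exceeded the filter cutoff in the brains only and had 4 fragments in all tumours. Its tumour ratio thus rests largely on the prior count of 2 and on Emx2. A separation of the groups was partly built in, and no conclusion is drawn from it.

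A wider list of 26 factors of cortical excitatory neurons had 19 genes lower, 0 higher and 7 not called in edgeR, with a median log2 fold change of -1.60. None was higher in edgeR at an unadjusted p below 0.05 (0 of 26), and DESeq2 and limma also called 0 higher. Lmo3, a LIM-only protein, was lower at -5.29 ± 0.54 (edgeR adjusted p = 4.00e-05) and Myt1l, a zinc finger factor of neuronal identity, at -5.05 ± 0.25 (SE; edgeR adjusted p = 9.16e-07). These were the lowest of the 26, and 7 of the 8 members had lower values than both, while Mef2c lay above both. Of 11 factors of dorsal progenitors 9 were tested, and 5 were higher (Eomes, Gli3, Pax6, Sox2 and Hes1), 2 lower (Hes5 and Lhx2) and 2 not called, with a median of 1.41. Of all tested genes 37.1% were called higher and 33.9% lower. Pax6 overlapped between the groups, with a lowest tumour of 7.68 CPM and a highest brain of 8.71 CPM. The Hes5 log2 fold change lost its call without brain 3 (edgeR adjusted p = 0.0753). Gli3, a zinc finger mediator of hedgehog signalling, was at 38.1 ± 17.3 CPM in glioblastomas (SD, n = 5) and 8.6 ± 0.484 CPM in brains (SD, n = 3), and was higher by 2.14 ± 0.47 on the log2 scale (SE; edgeR adjusted p = 0.00301). Neurog2, a factor that switches on NeuroD genes in progenitors, was at 0 fragments in all 5 tumours and at 15 fragments over the 3 brains, and did not pass the filter.

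**Figure D3:**
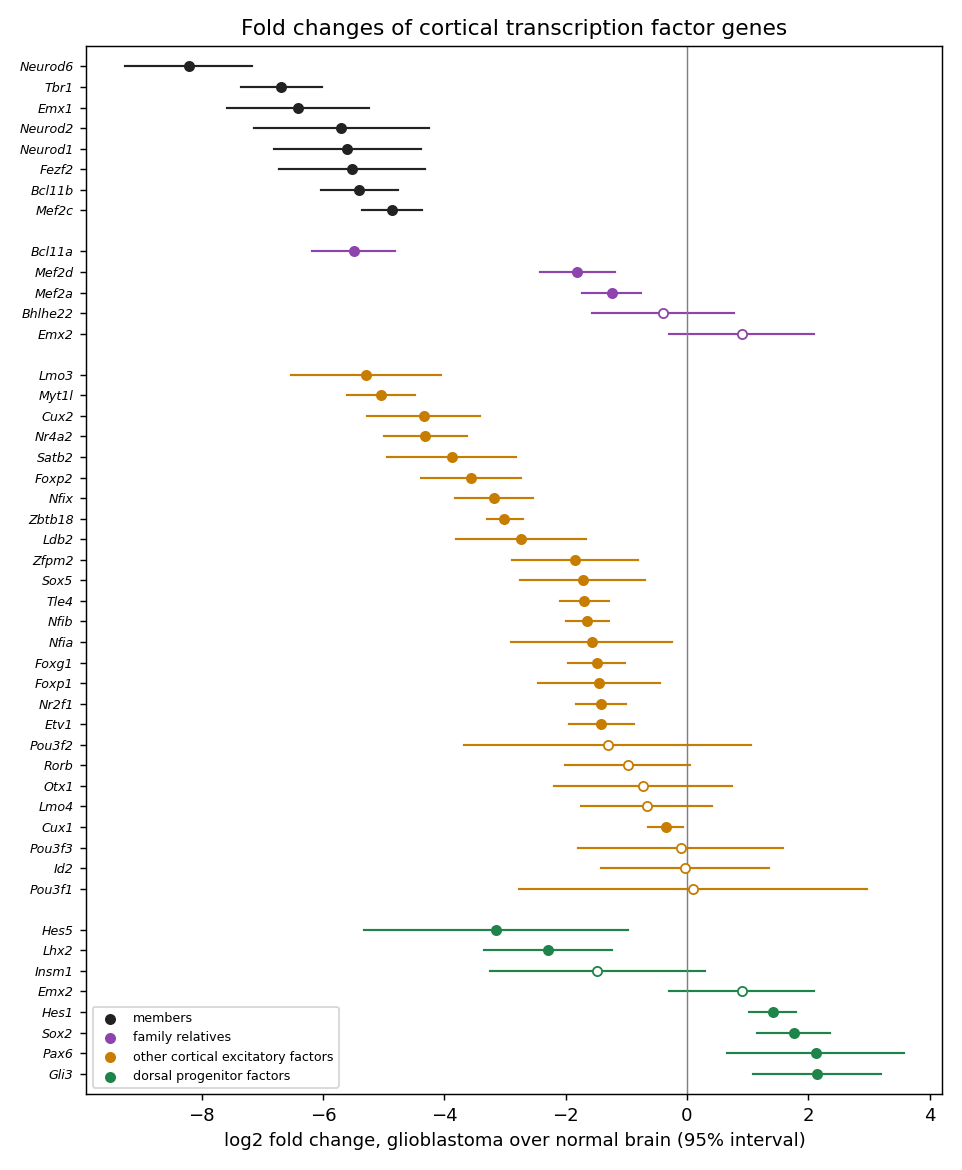
Log2 fold change of glioblastoma over normal brain with 95% interval (horizontal axis) for the 8 genes, their family relatives, other cortical excitatory factors and dorsal progenitor factors (1 gene per line; filled points were called by edgeR, open points were not). Genes with 3 or fewer fragments in a group, among them Eomes, are left out; the 8 members lie between -8.21 and -4.86, the other cortical factors between -5.29 and 0.10.

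Genes of the mature excitatory neuron fell along with the factors: all 15 in a list of receptors, synaptic proteins and signalling proteins were lower, with a median log2 fold change of -5.59. Itpka, a kinase of inositol trisphosphate in dendritic spines, was lower at -7.25 ± 0.33 (edgeR adjusted p = 6.70e-07) and the calcium sensor Hpca at -7.03 ± 0.35 (SE; edgeR adjusted p = 9.71e-07). Of 10 pan-neuronal genes 6 were lower, led by Snap25 at -6.14 ± 0.24 and Rbfox3 at -5.98 ± 0.28 (SE), and Nefl, Nefm, Stmn2 and Elavl4 were not called. Whether the 8 factors fell by more than neuronal genes as a whole was examined by scaling each library to its summed pan-neuronal fragments. On this scale 2.90% of the tested genes were called lower and 84.9% higher, and the median of all tested genes stood at 3.60. Without glioblastoma 4 the number of all genes called lower on this scale was 727, against 425.

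Per pan-neuronal fragment all 8 factors were lower in glioblastoma in edgeR. Neurod6 ranged from 0 to 1.62 fragments per 1000 pan-neuronal fragments in glioblastomas, against 14.9 to 19.9 in brains, which is -4.67 ± 0.68 on the log2 scale (SE; edgeR adjusted p = 5.64e-05). Tbr1 ranged from 0.541 to 1.23 in glioblastomas, against 7.56 to 9.05 in brains, or -3.26 ± 0.40 on the log2 scale (edgeR adjusted p = 1.63e-05), and Emx1 changed by -3.05 ± 0.72 (SE; edgeR adjusted p = 0.00196). The other 5 lay between -2.24 for Neurod1 and -1.36 for Mef2c, whose level was 28.2 to 65.7 per 1000 in glioblastomas, against 115 to 133 in brains. The calls for Neurod2 and Fezf2 were lost without brain 2 (edgeR adjusted p = 0.0591 and 0.0865).

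This result depended on which neuronal genes were summed. Nefl, Nefm and Stmn2, which encode a pair of neurofilament proteins and a microtubule regulator of axons, held between 48.8% and 85.2% of the pan-neuronal fragments in glioblastomas, against 10.4% to 10.7% in brains. With these 3 genes taken out of the sum, an alternative chosen after seeing the data, 0.451% of tested genes were called lower and the median of all tested genes was 5.35. On that scale 2 of the 8 members were called, Neurod6 at -3.04 ± 0.53 (edgeR adjusted p = 0.000117) and Tbr1 at -1.45 ± 0.45 (SE; edgeR adjusted p = 0.00811). Emx1 at -1.44 ± 0.68 missed the threshold (SE; edgeR adjusted p = 0.0600), and Neurod1, Neurod2, Fezf2 and Bcl11b lay between -0.53 and -0.10, with intervals that included 0. Mef2c took the opposite sign, at 0.47 ± 0.29, and was not called (SE; 95% interval from -0.17 to 1.11; edgeR adjusted p = 0.136). Scaled to the 15 genes of mature excitatory neurons, 286 of the 14641 tested genes were called lower and the median of all was 4.3. There 6 of the 8 members were called lower. Neurod1 at -1.37 ± 0.70 (edgeR adjusted p = 0.0779) and Mef2c at -0.58 ± 0.35 (SE; edgeR adjusted p = 0.129) were not. Neurod6 and Tbr1 were called lower under each of the 4 scalings shown in the plot by scaling. Both exceeded the filter cutoff in the brains only, so a difference was built into their being tested. The 4 scalings reuse the same counts and are not independent of each other. The excitatory sum and the sum without Nefl, Nefm and Stmn2 also hold genes that fell less, such as Chn1 and Thy1. Scaled by library size these changed by -2.99 and -3.19. Tbr1, at -6.69 there, lay near Slc17a7 at -6.57 and Grin2b at -6.88 of the excitatory list, whose median was -5.59. The calls thus do not show that Tbr1 fell by more than each neuronal gene.

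**Figure D4:**
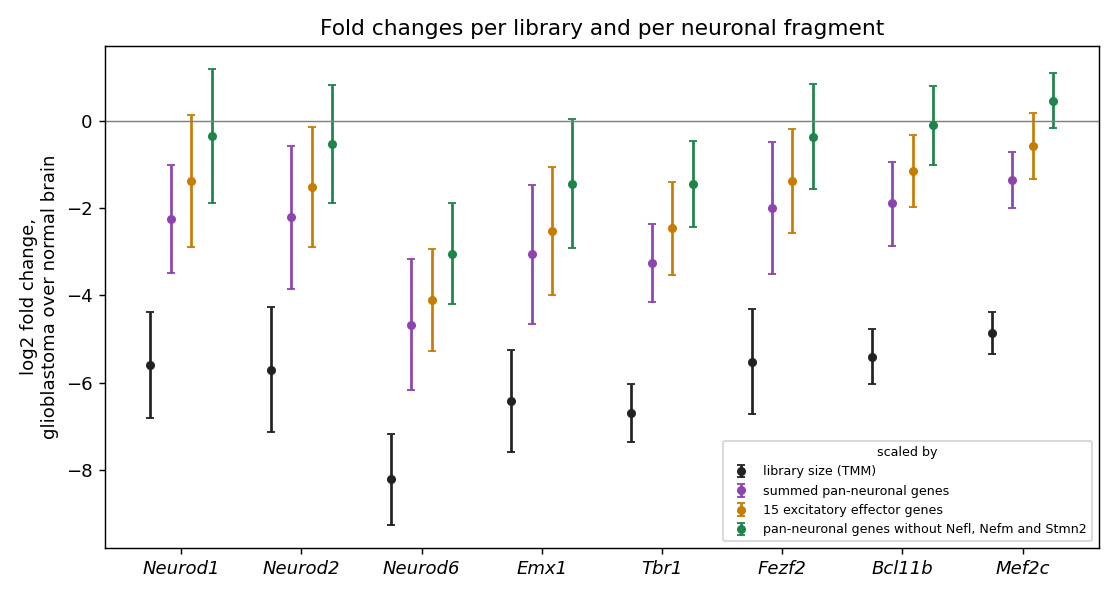
Log2 fold change of glioblastoma over normal brain with 95% interval (vertical axis) for the 8 genes under 4 scalings of the libraries: library size with TMM factors, summed pan-neuronal genes, 15 genes of mature excitatory neurons, and pan-neuronal genes without Nefl, Nefm and Stmn2. Neurod6 goes to -3.04 and Tbr1 to -1.45 on the last scale, while Mef2c crosses 0 to 0.47.

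Other cell types in which some of the 8 genes are known moved in both directions. Microglia, endothelium and T cells bear on Mef2c and Bcl11b. The 8 microglial genes summed to between 543 and 620 CPM in glioblastomas and between 404 and 418 CPM in brains, with 5 higher and 2 lower. Aif1 was higher by 2.21 ± 0.20 and Sall1 by 1.35 ± 0.21, and Siglech was lower at -3.64 ± 0.46. The 8 endothelial genes summed to between 242 and 454 CPM in glioblastomas and between 154 and 191 CPM in brains, with 6 higher, led by Cdh5 at 2.38 ± 0.55 and Flt1 at 1.99 ± 0.26, and 1 lower, Slco1c1 at -2.54 ± 0.40. Mef2c was thus lower in the samples in which both of these lists summed to more. Their part in the Mef2c level of the tumours was not tested. Of the 8 T-cell genes 1 passed the filter and 0 were called by edgeR, DESeq2 or limma or at an unadjusted edgeR p below 0.05, with sums of 3.87 to 8.26 CPM in glioblastomas and 2.70 to 4.22 CPM in brains. The most abundant, Lck, was at 2.97 ± 1.93 CPM in glioblastomas (SD, n = 5) and 2.20 ± 1.17 CPM in brains (SD, n = 3), with a log2 fold change of 0.45 ± 0.59, and Cd4 was at 0.885 ± 0.186 CPM in glioblastomas and 0.581 ± 0.521 CPM in brains. Among the others Cd3g had 22 fragments in glioblastomas and 1 in brains, a ratio of levels of 8.97 with an exact 95% counting interval from 1.61 to 354, and Cd8a had 17 in glioblastomas and 1 in brains, a ratio of 6.93 with an interval from 1.24 to 274. Cd2 had 16 fragments in glioblastomas and 0 in brains, Cd3d had 5 in glioblastomas and 0 in brains, and Cd3e had 1 in glioblastomas and 0 in brains. The part of T cells in the Bcl11b level of the tumours was not tested. Macrophage genes, 5 of 6 of which were higher, summed to between 874 and 2306 CPM in glioblastomas and between 12 and 29 CPM in brains, led by Arg1 at 8.38 ± 0.45 and Lyz2 at 6.92 ± 0.58.

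Other neuronal classes that share factors with the 8 genes fell in part. Of 11 GABAergic genes 7 were tested and 5 were lower, among them Slc32a1 at -5.53 ± 0.36 and Gad1 at -4.75 ± 0.32 on the log2 scale. Lhx6 at -0.40 ± 0.69 and Sp8 at 1.01 ± 0.80 were not called. Of 9 striatal genes, a class in which Bcl11b is expressed, 8 were tested and 5 were lower, among them Ppp1r1b at -6.02 ± 0.32, and summed levels were 35.7 to 101 CPM in glioblastomas and 244 to 384 CPM in brains. Isl1 at 3.37 ± 1.41, Ebf1 at 0.32 ± 0.39 and Adora2a at -0.02 ± 0.86 were not called. All 4 genes of hippocampal granule neurons, a class in which Neurod1 and Bcl11b are expressed, were lower, led by Tdo2 at -5.74 ± 0.70 and C1ql2 at -3.70 ± 0.87, with sums of 7.80 to 9.95 CPM in glioblastomas and 36.9 to 102 CPM in brains. Among cerebellar genes 3 of 8 were tested and 1, Cbln1, was lower at -2.01 ± 0.62 (the Cbln1 log2 fold change lost its call without brain 2 or brain 3, edgeR adjusted p = 0.0501 and 0.0698). The other tested cerebellar genes, Zic1 at 0.79 ± 0.53 and Zic2 at 0.66 ± 0.36, were not called. Among thalamic and midbrain genes 3 of 7 were tested and 1, Lhx9, was lower at -2.29 ± 0.28. Prkcd at 1.26 ± 0.55 and Tcf7l2 at -0.16 ± 0.57 were not called. The thalamic and midbrain sums were 54.5 to 133 CPM in glioblastomas and 22.2 to 81.9 CPM in brains. Among glial genes, 4 of 6 of astrocytes were lower, led by Ntsr2 at -4.89 ± 0.39 and Slc1a2 at -4.04 ± 0.48, and 6 of 6 of oligodendrocytes, led by Mog at -4.37 ± 0.30 and Opalin at -4.30 ± 0.75.

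The genes most like the 8 factors over the 8 samples were found by Pearson's r of log2 CPM, as a description. The samples form 2 groups that lie far apart for each factor, so an r over all of them mainly reports the difference between groups. With the mean of the 8 factors, Cracdl, Ryr2, Tmcc1, Rbfox3 and Camk2a had the highest r, between 0.998 and 0.999. Ryr2 encodes an intracellular calcium release channel, Rbfox3 a neuronal splicing factor and Camk2a a kinase of excitatory synapses. For 7 of the single members the closest genes were Xpo7 for Neurod1, Oprk1 for Neurod2, Marf1 for Tbr1, Ankrd63 for Bcl11b, Fam107a for Fezf2, Phf24 for Mef2c and Slc35f4 for Emx1. The sizes of change differed among these pairs: Xpo7 changed by -0.66 on the log2 scale, against -5.60 for Neurod1, whereas Oprk1 changed by -5.64, against -5.70 for Neurod2.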

How the data were processed

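RNA from 5 mouse glioblastomas and 3 normal mouse brains was purified on columns, treated with DNase and made into TruSeq libraries, per the labels' protocols. Per the submitters' processing notes, STAR 2.3.0e, Cuffdiff 2.1.1 and the build mm9 were used, and no source used here gives their settings. In 1 table the authors deposited estimated counts of fragments, and FPKM values, for 30967 RefSeq accessions in each library, per the file headers. Symbols came from RefSeq GRCm38 for 30474 accessions and from GENCODE for 178, and 315 without a symbol kept their identifiers. Sequences come from GRCm38 and no coordinates of mm9 were used. Among genes with several accessions 33.2% of accession values but 97.8% of gene sums were whole within 0.01, so accessions were summed per gene and rounded, which gave 23523 features. Every pair of libraries differed by more than sampling noise, with a lowest chi-square per degree of freedom of 5.17.

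The main test was the robust quasi-likelihood test of edgeR 4.0.16 with TMM factors and the default filter (14641 genes; Benjamini-Hochberg threshold 0.05), and a second fit replaced library sizes by summed pan-neuronal fragments. Log2 CPM used a prior count of 2. Alternatives were DESeq2 1.42.0, limma 3.58.1 on log2(FPKM + 1) and log2(FPKM + 0.1), other scalings and filters, single accessions and left-out samples. Named genes were the members, per list the 2 called genes with the largest change in its main direction and 1 in the other, or the 2 most abundant where none was called, and the genes most like the members. Trp53 and Hras were added as the genes of the vector, and other genes named were chosen after their values were seen. Some genes that this rule names are not reported here. The members and the 16 other gene lists were chosen with earlier results of these data known. The planned comparison of the NeuroD proteins was not made, and coding sequence was compared instead. R 4.3.3, pandas 2.3.3, numpy 2.4.6, scipy 1.17.1 and matplotlib 3.10.9 were used.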

Additional observations from a re-analysis of the deposited data

Results flagged for a closer look

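Among 46 genes, the 8 factors, their relatives and the genes named from the other lists, 3 had 1 glioblastoma far from the other 4 by Dixon's criterion at the 95% level, which flags about 1 in 20 by chance, and none of the 8 transcription factors did. Eomes, the intermediate progenitor factor, was at 10.5 CPM in glioblastoma 1, against 0.291 to 2.74 CPM in the other tumours. Hes5, a target of Notch signalling, was at 1.57 CPM in glioblastoma 4, against 0 to 0.310 CPM in the others. Itpka was at 2.32 CPM in glioblastoma 1, against 0.726 to 1.11 CPM in the others.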

How the results depend on the processing

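For the 8 factors in glioblastoma against normal brain, all 144 values under the 18 alternatives kept their direction and their call, single samples left out included. Log2(FPKM + 1) with limma gave the smallest changes for low genes, for example -3.04 for Emx1. The median log2 fold change of all tested genes was 0.20 with library size only and 0.18 with upper quartile factors, against 0.06. Relative to the pan-neuronal sum, 86 of 96 values kept direction and call, 9 lost the call and Mef2c reversed to 0.47 without Nefl, Nefm and Stmn2. In that setting 2 members and 66 of all genes were lower, against 8 and 425. Leaving out 1 sample gave 322 (without brain 2) to 727 (without glioblastoma 4) genes lower on the pan-neuronal scale. Family relatives had 0 genes higher with the filter of 5 CPM, since Eomes was then not tested, and 2 with no filter, when more genes were tested. Dorsal progenitor factors had 1 gene lower with the filter of 5 CPM, and 1 (without brain 3) to 3 (without glioblastoma 5) when a sample was left out. The Hes5 log2 fold change lost its call without brain 3 (edgeR adjusted p = 0.0753), and the Cbln1 log2 fold change without brain 2 or 3 (0.0501 and 0.0698). GABAergic genes had 8 lower with no filter. The Lck log2 fold change, which was not called, ran from -0.02 (without glioblastoma 4) to 0.68 (without brain 2) and was -0.39 without brain 1 and glioblastoma 4. Where no reason is given, the cause was not tested. No paired analysis was possible because the labels give no replicate numbers, and those of the deposited table only index the samples within each group and tie none to an animal or batch. Levels under the floor of 3 fragments, as for most tumour values of Emx1 and Neurod1, do not order the tumours.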
